A study of Mus musculus with 12 samples.

Results

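The 48 genes described here build and run mitosis: the kinases and cyclins that start it, the kinetochores and spindle that pull chromosomes apart, the checkpoint and proteolysis factors that time anaphase, and the proteins that cut the daughter cells apart. They were chosen as a list of gene symbols, and each was matched to the transcript cluster that carries its symbol alone. All 48 were found, each with 1 cluster, among 65956 clusters tested. The signals came from 12 Affymetrix MTA-1_0 arrays, hybridised with total RNA from keratinocytes sorted by flow cytometry from the skin of FVB/N mice on postnatal day 4. The 3 bitransgenic basal arrays carry the codes X667_05, X721_05 and X722_07. The wild-type basal arrays are X667_06, X682_11 and X721_08. The bitransgenic suprabasal arrays are X667_05, X682_05 and X721_05, and the wild-type suprabasal arrays are X667_06, X682_11 and X721_08. The sample titles also call basal cells high and suprabasal cells low. The labels name neither the transgenes nor the promoters that drive them, nor the marker used in the sort; the series title names progerin, the truncated lamin A of Hutchinson-Gilford progeria. They do not say that codes are separate animals, so p-values here measure only the spread between these samples.

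In the epidermis, cells divide in the basal layer and leave the cell cycle as they move up into the suprabasal layers. Many genes of mitosis are transcribed only late in the cell cycle, in G2 and M phase, and are repressed in resting cells. The repression runs through the DREAM complex, which binds a short promoter element called the cell cycle genes homology region (CHR), and activation runs through B-Myb and FoxM1 at the same element, often next to CCAAT boxes bound by NF-Y. The comparisons of the series ask how the layers differ in each genotype and how the genotypes differ in each layer.

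Promoter sequence was read for 40 of the 48 genes from RefSeq windows (GRCm38.p6) that run from 250 bases before to 50 bases after the annotated start. Ccna2, Cdc25c, Aurkb, Incenp, Nsl1, Tpx2, Kif20a and Shcbp1 have no window in the table used. The letters searched on both strands were TTTGAA and TTTAAA, the core letters of the CHR, and CCAAT, the box of NF-Y. The second of these reads the same on both strands, and matches of different motifs may overlap. Promoters with these letters, and 1 with none, are shown because the choice of genes did not use them. Each line gives the 160 bases before the annotated start, 5′ to 3′ on the gene's strand, with matches in capitals, which stand as the reverse complement where the motif lies on the opposite strand.
Ccnb1, chr13:100786487-100786646 (minus strand): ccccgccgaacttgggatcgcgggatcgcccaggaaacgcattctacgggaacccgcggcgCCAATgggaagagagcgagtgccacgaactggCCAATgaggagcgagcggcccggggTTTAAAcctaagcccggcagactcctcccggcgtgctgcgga
Cdk1, chr10:69352913-69353072 (minus strand): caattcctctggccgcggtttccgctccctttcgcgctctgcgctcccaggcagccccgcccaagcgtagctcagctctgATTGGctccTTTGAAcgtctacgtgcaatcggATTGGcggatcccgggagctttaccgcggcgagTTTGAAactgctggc
Cdc20, chr4:118437344-118437503 (minus strand): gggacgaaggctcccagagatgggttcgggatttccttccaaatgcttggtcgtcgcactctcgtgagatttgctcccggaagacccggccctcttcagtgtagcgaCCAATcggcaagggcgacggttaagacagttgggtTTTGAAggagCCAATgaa
Top2a, chr11:99024190-99024349 (minus strand): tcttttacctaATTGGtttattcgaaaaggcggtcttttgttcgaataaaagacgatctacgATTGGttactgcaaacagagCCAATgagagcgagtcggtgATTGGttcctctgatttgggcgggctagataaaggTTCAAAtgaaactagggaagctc
Kif11, chr19:37376222-37376381 (plus strand): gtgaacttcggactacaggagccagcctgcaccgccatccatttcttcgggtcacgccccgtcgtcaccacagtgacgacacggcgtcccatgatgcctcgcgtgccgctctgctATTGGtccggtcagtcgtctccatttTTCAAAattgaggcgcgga
Kif18a, chr2:109280578-109280737 (plus strand): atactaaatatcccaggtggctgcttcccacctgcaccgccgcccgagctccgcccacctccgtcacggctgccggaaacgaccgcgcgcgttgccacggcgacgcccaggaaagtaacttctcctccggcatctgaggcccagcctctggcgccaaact

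Ccnb1, which encodes cyclin B1, has its TTTAAA at positions -42 to -37, counted back from the start with -1 as the last base shown, and CCAAT boxes that begin at -99 and -67. Cdk1, the kinase that cyclin B1 activates, has TTTGAA from -71 and again from -15. In Cdc20 the letters TTTGAA begin at -18, in Kif11 at -19 and in Top2a at -23. Kif18a holds none of the 3 motifs in its whole window.

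TTTGAA was present in 26 of the 40 windows (65%), against 20.2% of the 27025 genes with a window. TTTAAA was present in 9 of 40 (22.5%), against 14.9% of all genes. Either core was found in 29 of 40 (72.5%), against 30.6%. Close to the start, in a zone of 50 bases on each side chosen for description, 27 of 40 (67.5%) had a core, against 9.54% of all genes. CCAAT was present in 30 of 40 windows (75%), against 41.1% of all genes, and 21 of 40 (52.5%) held 2 or more, against 13.3%. Both features, a core within 50 bases and at least 2 CCAAT boxes, were found together in 17 of 40 (42.5%), against 1.39%. Among 66 other mitosis genes with a window, 30 (45.5%) had a core within 50 bases, and among 25 genes of S phase 4 did (16%). CCAAT was present in 44 (66.7%) of the other mitosis genes and in 17 (68%) of the S phase genes, and 26 (39.4%) and 10 (40%) held 2 or more. A match of letters is a description of the window and is not a binding site. The 27 genes with a core near the start had a median basal minus suprabasal difference of 0.74 in bitransgenic and 1.38 in wild-type cells, and the 13 without had 0.58 and 0.94 (log2). The ranges of these sets overlap, from 0.34 to 1.10 with a core and 0.30 to 0.75 without in bitransgenic cells, and from 0.56 to 1.88 with and 0.55 to 1.64 without in wild-type cells.

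**Figure D1:**
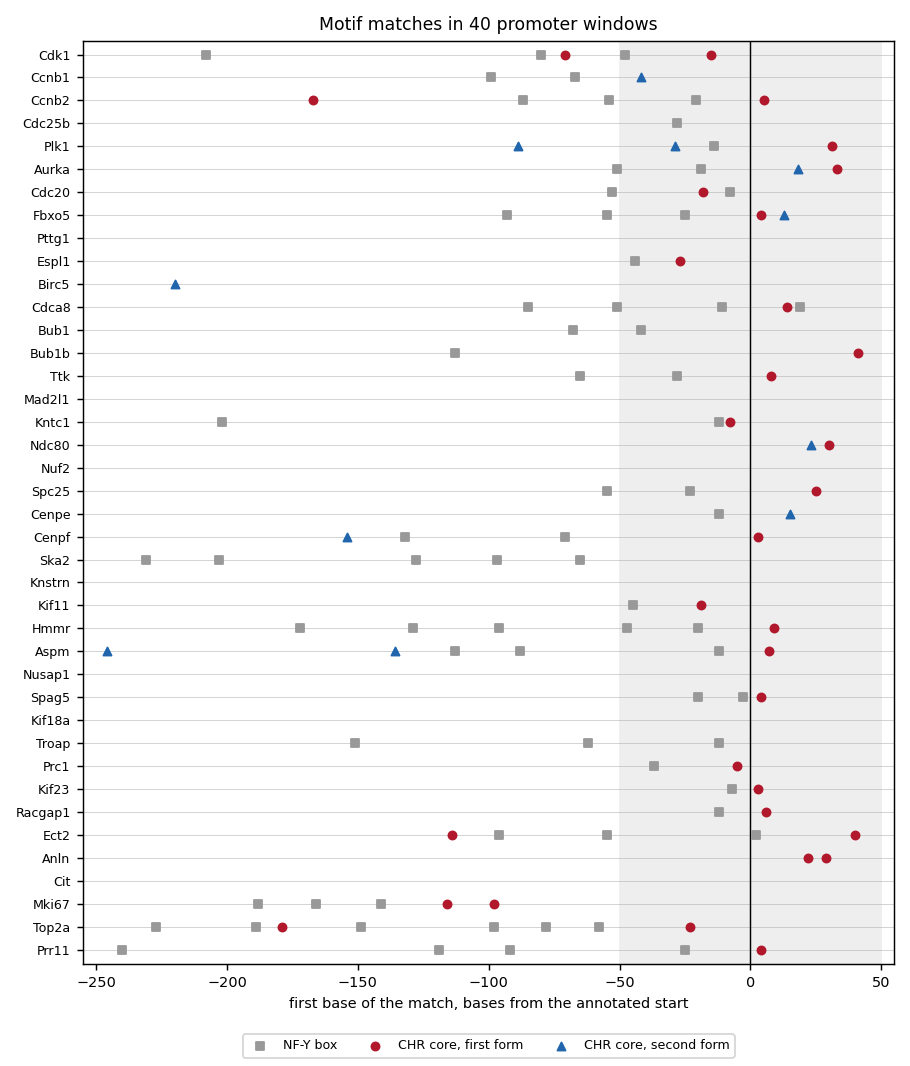
Motif matches in the 40 promoter windows by distance of the first base of the match from the annotated start (x axis, bases); grey squares are NF-Y boxes (CCAAT), red circles TTTGAA and blue triangles TTTAAA, on either strand, and 1 window is drawn per gene. The red and blue marks gather in the shaded zone within 50 bases of the start, where 27 of 40 genes have one.

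Each array gives a log2 signal per cluster, on which 1 unit is a doubling of signal, and array medians over all clusters lay between 5.28 and 5.46. Background was read from 5222 intronic control probe sets, whose 95th percentile lay between 8.04 and 8.81. A gene that exceeds that mark on none of a group's 3 arrays counts as not above background in that group. Folds are then given as bounds against the mark, and no fold is given where both groups are below it. Single signals of the 48 genes ranged from 5.37 to 11.48. On at least 1 array of the group, 31 genes were above the mark in bitransgenic basal, 31 in wild-type basal, 21 in bitransgenic suprabasal and 9 in wild-type suprabasal cells; 16 were above it in no group. Mki67 alone was above it on all 12 arrays. Precision is limited by there being 3 arrays per group. In bulk RNA, fewer cells of a type and less RNA per cell cannot be told apart.

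The arrays differ in ways that touch the results. The median signal of the 48 genes was 8.36, 8.07 and 8.02 in bitransgenic basal and 8.34, 8.5 and 8.31 in wild-type basal arrays. It was 7.87, 7.53 and 7.21 in bitransgenic suprabasal arrays and 7.58, 7.31 and 6.92 in wild-type suprabasal arrays, in the order of the codes above. Bitransgenic suprabasal X667_05 thus stood nearest to basal cells and was the highest suprabasal array, or tied for it, in 46 of 48 genes. Wild-type suprabasal X721_08 was alone the lowest of all 12 arrays in 45 of 48. Intronic controls moved with these levels: the mark was 8.04, 8.12 and 8.81 in bitransgenic suprabasal and 8.48, 8.21 and 8.71 in wild-type suprabasal arrays, and in each of the 4 groups the array with the highest mark had the lowest mean of the 48 genes. Melanocyte markers moved with the layers. Their summed signal (log2, 8 genes) was 9.30 to 10.30 in bitransgenic basal and 9.12 to 9.73 in wild-type basal arrays, against 11.05 to 14.91 in bitransgenic suprabasal and 13.17 to 14.68 in wild-type suprabasal arrays, with 11.05 on bitransgenic suprabasal X667_05. Of the 8, 7 were above the mark in each suprabasal group, 1 in bitransgenic basal cells and 0 in wild-type basal cells. The 6 fibroblast markers summed to 9.30 to 9.40 in bitransgenic and 9.12 to 9.73 in wild-type basal arrays, against 9.52 to 11.6 in bitransgenic and 10.4 to 11.4 in wild-type suprabasal arrays, and Vim was the 1 above the mark there. The 6 markers of hair matrix and follicle summed to 10.9 to 11.7 in bitransgenic and 10.9 to 11.3 in wild-type basal arrays, against 12.2 to 12.7 in both bitransgenic and wild-type suprabasal arrays, with 2 of 6 above the mark in each group. Such sums follow the brightest genes. By group mean 2 of these 6 were higher in basal cells in each genotype, with median differences of -0.13 in bitransgenic and -0.355 in wild-type cells (basal minus suprabasal). Of the 6 fibroblast markers 1 was higher in basal cells in each genotype. Markers of immune, endothelial, erythroid and Merkel cells were above the mark in no group. The part of these cell types in the layer results was not tested. Basal keratinocyte markers (9 genes) summed to 14.8 to 14.9 in bitransgenic basal and 14.9 to 15.2 in wild-type basal arrays, against 13.9 to 14.7 in bitransgenic and 14.56 to 15.01 in wild-type suprabasal arrays. Suprabasal keratinocyte markers (10 genes) summed to 14.2 to 14.6 and 14.2 to 14.7 in bitransgenic and wild-type basal arrays, against 14.75 to 15.02 and 14.55 to 15.27 in bitransgenic and wild-type suprabasal arrays.

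**Figure D2:**
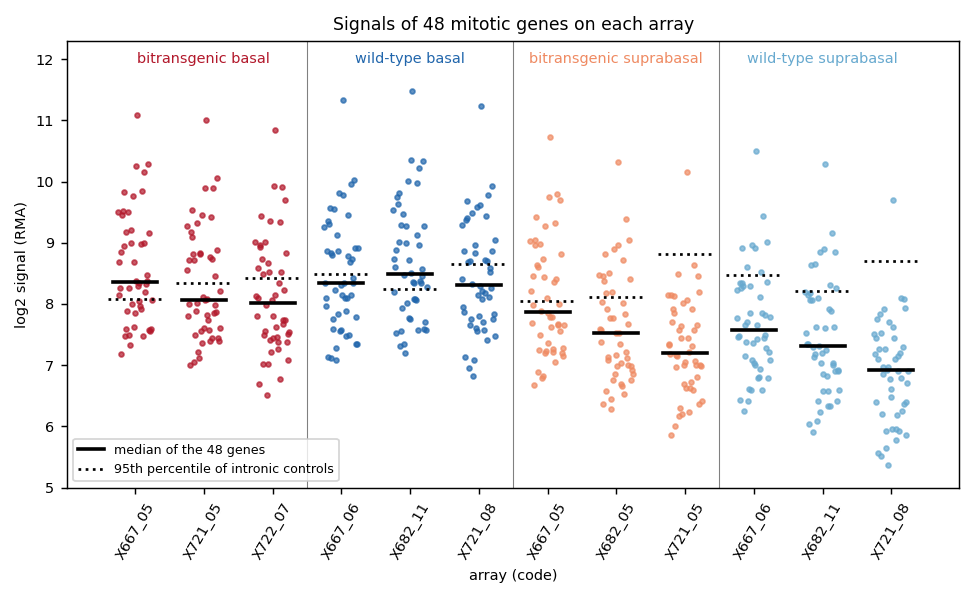
Log2 signal (y axis) of the 48 genes on each of 12 arrays (x axis, by code), coloured by group; each point is 1 gene, the thick line is their median and the dotted line the 95th percentile of intronic controls. The medians of all basal arrays, 8.02 to 8.5, lie above those of all suprabasal arrays, 6.92 to 7.87.

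By group mean all 48 genes were higher in basal than in suprabasal cells, in both genotypes. In bitransgenic cells the median difference was 0.70 (basal minus suprabasal, log2), from 0.30 for Ska2 to 1.10 for Kif23. In wild-type cells it was 1.20, from 0.55 for Troap to 1.88 for Kif11. These are differences of measured signals, and they give no exact size of change where a group lies under the background mark, as Kif11 does in wild-type suprabasal cells and Ska2 and Troap do in all groups. Over all clusters the medians were 0.02 and -0.047, with 57.2% and 39.1% of clusters positive in bitransgenic and wild-type cells. In bitransgenic cells no gene passed limma's adjusted p under 0.05 (lowest adjusted p = 0.605), and no cluster of the array did (0% called higher). There 41 genes had an unadjusted limma p under 0.05, against 4.33% of all clusters higher at that p, and for 29 genes the basal and suprabasal arrays did not overlap, against 8.08% of all clusters. In wild-type cells 32 of 48 rose and 0 fell in basal cells (limma's adjusted p under 0.05), against 0.406% of all clusters called higher. All 48 had wild-type basal arrays that did not overlap the suprabasal ones, against 7.38% of all clusters. Averaged over both genotypes, a comparison that the series design does not name, the median difference was 0.95 and 36 of 48 rose, against 0.472% of all clusters, while 26 had 6 basal arrays above all 6 suprabasal arrays (0.754% of all clusters).

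The codes pair the layers: deviations from the group means correlated at 0.136 to 0.533 between arrays of 1 code. With the code as a random block, 46 of 48 genes rose in wild-type cells (1.34% of all clusters higher) and 47 in the mean of both genotypes (1.46%), while 0 passed in bitransgenic cells. With the intronic control median as a covariate, a setting chosen after seeing the data, all 48 rose in wild-type cells (2.52% of all clusters) and in the mean of both genotypes (2.47%), with medians of 1.23 and 0.93, and again 0 in bitransgenic cells. The wild-type count was 0 without the suprabasal arrays X721_05 and X721_08, chosen likewise, with a median of 0.93; 1 cluster of the whole array was then called higher. Leaving out single arrays gave 0 without bitransgenic basal X721_05, wild-type basal X682_11 or X721_08, bitransgenic suprabasal X682_05, or wild-type suprabasal X682_11 or X721_08. It gave 6 without bitransgenic basal X722_07 and 19 without wild-type basal X667_06. The count was 22 without bitransgenic basal X667_05 and 26 without wild-type suprabasal X667_06. It was 37 and 45 without bitransgenic suprabasal X667_05 and X721_05. In the mean of both genotypes the count was 0 without suprabasal X682_05 or X682_11, 1 without bitransgenic basal X721_05 or wild-type basal X721_08, and 3 without wild-type suprabasal X721_08. It was 4, 6, 15 and 6 without basal X667_05, X722_07, X667_06 and X682_11, and 16 without bitransgenic suprabasal X721_05. Without bitransgenic suprabasal X667_05 and wild-type suprabasal X667_06 it was 48 and 39. For these counts the share of all clusters called is not given. Where a bitransgenic array was left out, the wild-type arrays were unchanged and their median stayed at 1.20. The wild-type count then moved only through the spread estimated over all groups and the adjustment over all clusters. For the other counts a change in these genes cannot be told from one over the whole array. Within each code that has both layers, all 48 genes were higher in basal than in suprabasal cells: the median difference was 0.50 for X667_05 and 1.05 for X721_05 in bitransgenic cells, and 0.71 for X667_06, 1.21 for X682_11 and 1.56 for X721_08 in wild-type cells.

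**Figure D3:**
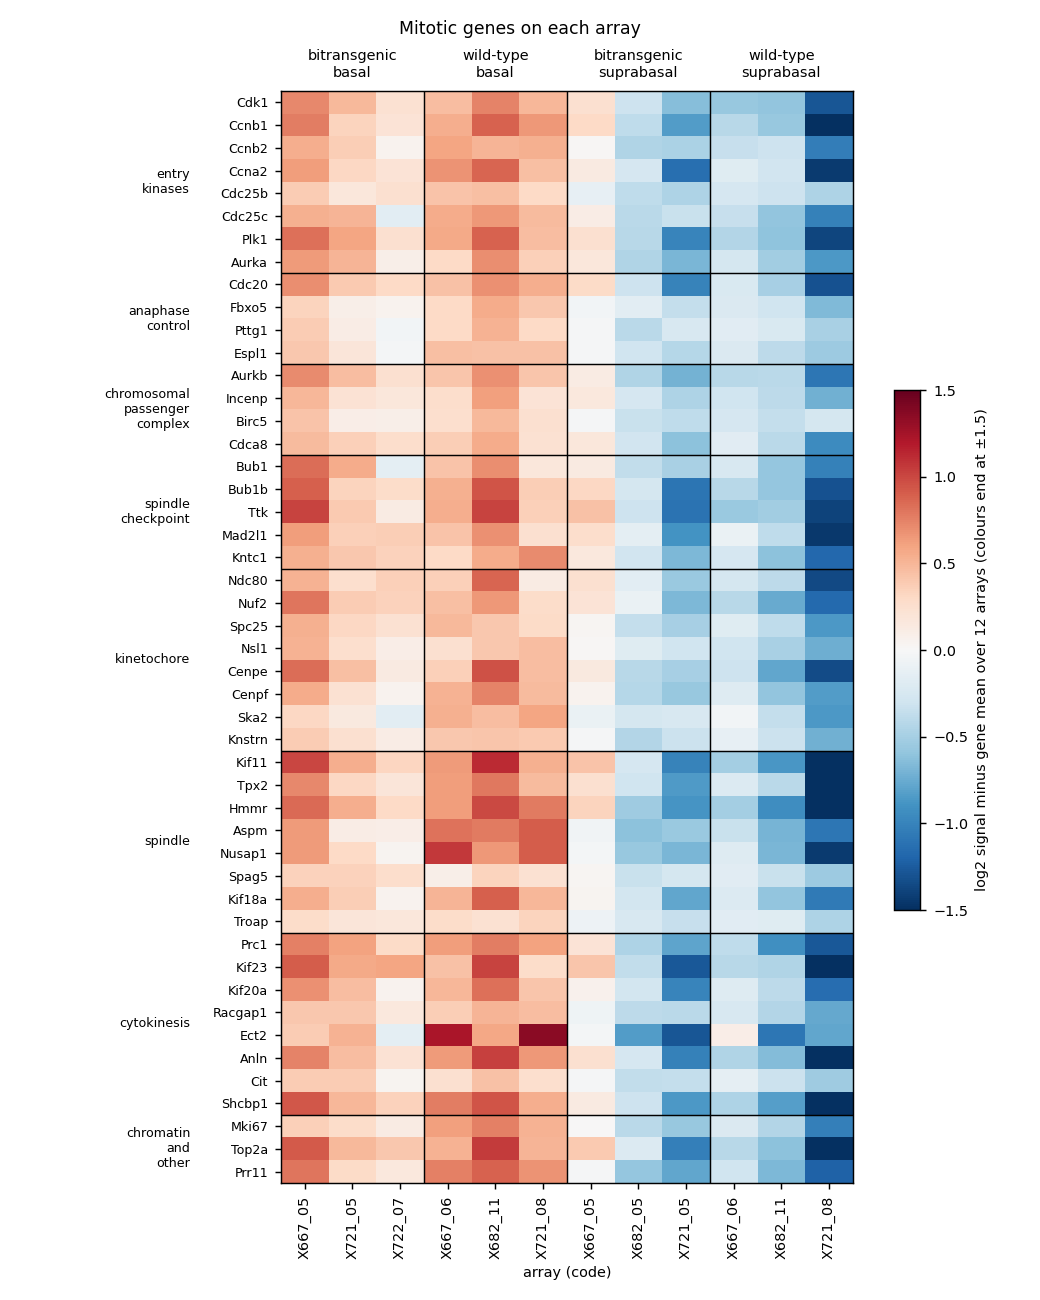
Log2 signal of each of the 48 genes (rows, by role) on each array (columns, by group and code), as the difference from that gene's mean over 12 arrays; red is above and blue below the mean, and colours end at 1.5 units. The mean difference was above the gene means on all 6 basal arrays, from 0.17 on bitransgenic X722_07 to 0.70 on wild-type X682_11. Bitransgenic suprabasal X667_05, with 0.12, is about as pale as basal X722_07, and wild-type suprabasal X721_08 is the darkest blue.

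The kinases, cyclins and phosphatases of mitotic entry come first in the order of events. Cdk1 (chromosome 10, 69336635 to 69352938, minus strand, mm10) read 9.51, 9.27 and 9.02 in bitransgenic and 9.25, 9.53 and 9.29 in wild-type basal arrays, against 9.03, 8.48 and 8.15 in bitransgenic and 8.22, 8.2 and 7.51 in wild-type suprabasal arrays. Every basal array exceeded every wild-type suprabasal array, while bitransgenic suprabasal X667_05 reached the level of the lowest basal array. The difference was 0.71 ± 0.24 in bitransgenic cells (log2, SE; adjusted p = 0.605) and 1.38 ± 0.24 in wild-type cells (adjusted p = 0.0391, limma), a fold of at least 1.85. Ccnb1 (chromosome 13, 100778650 to 100786570, minus strand) read 9.52, 9.09 and 8.96 in bitransgenic and 9.3, 9.63 and 9.4 in wild-type basal arrays, against 9.05, 8.37 and 7.91 in bitransgenic and 8.34, 8.18 and 7.26 in wild-type suprabasal arrays. It too rose in wild-type basal cells, by 1.52 ± 0.317 (limma's adjusted p = 0.0484, at least 1.97-fold), beside 0.75 ± 0.317 in bitransgenic cells (adjusted p = 0.645). Ccnb2, cyclin B2, read 9.5, 9.33 and 9.01 in bitransgenic and 9.55, 9.47 and 9.49 in wild-type basal arrays, against 8.98, 8.51 and 8.49 in bitransgenic and 8.61, 8.65 and 7.92 in wild-type suprabasal arrays. Its basal and suprabasal arrays did not overlap in either genotype, and it rose by 1.11 ± 0.202 in wild-type cells (limma's adjusted p = 0.0405). Plk1 and Aurka, kinases of centrosome maturation and spindle assembly, had differences of 0.94 and 0.74 in bitransgenic and 1.44 and 1.0 in wild-type cells, and missed the threshold (limma's adjusted p = 0.0529 and 0.0594 in wild type). Plk1 read 10.28, 10.05 and 9.69 in bitransgenic and 10.02, 10.34 and 9.92 in wild-type basal arrays, against 9.7, 9.04 and 8.46 in bitransgenic and 9.02, 8.85 and 8.08 in wild-type suprabasal arrays. Aurka read 8.68, 8.55 and 8.13 in bitransgenic and 8.34, 8.73 and 8.4 in wild-type basal arrays, against 8.21, 7.59 and 7.35 in bitransgenic and 7.77, 7.52 and 7.18 in wild-type suprabasal arrays. Cdc25b, a phosphatase that activates Cdk1, had a small difference with a small error, 0.58 ± 0.098 in bitransgenic and 0.73 ± 0.098 in wild-type cells (limma's adjusted p = 0.605 and 0.0338). It read 8.29, 8.08 and 8.15 in bitransgenic and 8.34, 8.36 and 8.21 in wild-type basal arrays, against 7.79, 7.53 and 7.45 in bitransgenic and 7.66, 7.6 and 7.45 in wild-type suprabasal arrays, with every basal array above every suprabasal one. It was the 1 gene of the 48 called in bitransgenic cells when suprabasal X667_05 was left out (0.68, limma's adjusted p = 0.0324), when 10 clusters of the array were called higher. Cdc25c, its relative, read 7.47, 7.44 and 6.78 in bitransgenic and 7.49, 7.58 and 7.41 in wild-type basal arrays, against 7.05, 6.53 and 6.6 in bitransgenic and 6.59, 6.34 and 5.92 in wild-type suprabasal arrays. It rose by 1.21 in wild-type basal cells, was above background in no group, and had 1 bitransgenic basal array among the suprabasal values. Ccna2, cyclin A2, read 9.77, 9.45 and 9.35 in bitransgenic and 9.81, 10.01 and 9.59 in wild-type basal arrays, against 9.28, 8.89 and 8.01 in bitransgenic and 8.96, 8.85 and 7.71 in wild-type suprabasal arrays. Of these 8 genes 5 rose in wild-type cells; Ccna2 had 1.30 ± 0.356 with adjusted p = 0.0812.

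Anaphase starts when Cdc20 turns on the anaphase-promoting complex, securin (Pttg1) is destroyed and separase (Espl1) cuts cohesin; Emi1 (Fbxo5) restrains the complex before then. Pttg1 read 7.63, 7.36 and 7.21 in bitransgenic and 7.55, 7.77 and 7.55 in wild-type basal arrays, against 7.23, 6.85 and 7.01 in bitransgenic and 7.08, 7.03 and 6.77 in wild-type suprabasal arrays. Its arrays did not overlap in wild-type cells but it was above background in no group. Securin, separase and Emi1 rose in wild-type basal cells by 0.66, 0.83 and 0.81 (limma's adjusted p = 0.0463, 0.036 and 0.036). Espl1 read 8.05, 7.82 and 7.62 in bitransgenic and 8.1, 8.08 and 8.08 in wild-type basal arrays, against 7.63, 7.35 and 7.22 in bitransgenic and 7.43, 7.25 and 7.1 in wild-type suprabasal arrays. Fbxo5 read 8.26, 8.01 and 7.98 in bitransgenic and 8.23, 8.48 and 8.33 in wild-type basal arrays, against 7.88, 7.77 and 7.57 in bitransgenic and 7.71, 7.63 and 7.27 in wild-type suprabasal arrays. The 3 wild-type basal arrays of Espl1 lay close together, and it was above background in no group. Cdc20 read 9.83, 9.53 and 9.43 in bitransgenic and 9.57, 9.82 and 9.68 in wild-type basal arrays, against 9.42, 8.82 and 8.13 in bitransgenic and 8.91, 8.63 and 7.83 in wild-type suprabasal arrays. It spread more, with 0.81 ± 0.318 in bitransgenic and 1.23 ± 0.318 in wild-type cells (adjusted p = 0.0717 in wild type). The bitransgenic differences of these 4 ran from 0.34 to 0.81, with a median of 0.40 against 0.82 in wild type.

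The chromosomal passenger complex, Aurora B with Incenp, survivin (Birc5) and borealin (Cdca8), corrects faulty attachments of chromosomes and later acts in the cleavage furrow. Aurkb read 8.99, 8.74 and 8.52 in bitransgenic and 8.69, 8.97 and 8.7 in wild-type basal arrays, against 8.4, 7.83 and 7.57 in bitransgenic and 7.86, 7.88 and 7.2 in wild-type suprabasal arrays. Incenp, the scaffold, read 9.16, 8.88 and 8.83 in bitransgenic and 8.92, 9.27 and 8.86 in wild-type basal arrays, against 8.82, 8.41 and 8.19 in bitransgenic and 8.36, 8.26 and 7.94 in wild-type suprabasal arrays. In both, every basal array exceeded every suprabasal array of its own genotype. Birc5 read 8.14, 7.81 and 7.8 in bitransgenic and 7.96, 8.19 and 7.95 in wild-type basal arrays, against 7.69, 7.37 and 7.33 in bitransgenic and 7.46, 7.35 and 7.45 in wild-type suprabasal arrays. Its wild-type suprabasal values lay close together, and its lowest array was bitransgenic X721_05. Aurkb, Incenp and Birc5 rose in wild-type basal cells by 1.14 ± 0.231, 0.83 ± 0.176 and 0.61 ± 0.119 (limma's adjusted p = 0.0466, 0.0496 and 0.0436), and Aurkb by at least 1.25-fold. Birc5 was above background in neither wild-type group, so the size of its change cannot be read. Cdca8 read 8.94, 8.82 and 8.73 in bitransgenic and 8.83, 9.02 and 8.69 in wild-type basal arrays, against 8.63, 8.18 and 7.85 in bitransgenic and 8.29, 8.06 and 7.52 in wild-type suprabasal arrays. Its layers did not overlap in either genotype, and it had 0.89 in wild-type cells with adjusted p = 0.0629. In bitransgenic cells the 4 differences ran from 0.45 to 0.82.

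The spindle checkpoint holds anaphase until each kinetochore is attached. Bub1, a kinase at the kinetochore, read 7.49, 7.21 and 6.51 in bitransgenic and 7.08, 7.35 and 6.83 in wild-type basal arrays, against 6.79, 6.29 and 6.17 in bitransgenic and 6.42, 6.08 and 5.64 in wild-type suprabasal arrays. Bub1b, which encodes BubR1, a part of the inhibitor of Cdc20, read 8.68, 8.12 and 8.06 in bitransgenic and 8.31, 8.72 and 8.15 in wild-type basal arrays, against 8.09, 7.52 and 6.69 in bitransgenic and 7.36, 7.2 and 6.48 in wild-type suprabasal arrays. Mad2l1, the checkpoint protein Mad2, read 10.16, 9.9 and 9.91 in bitransgenic and 9.96, 10.22 and 9.78 in wild-type basal arrays, against 9.8, 9.39 and 8.64 in bitransgenic and 9.44, 9.16 and 8.09 in wild-type suprabasal arrays. Wild-type suprabasal X721_08 was the lowest array for each. Bub1 was above background in no group. The wild-type differences of the 3 genes were 1.04 ± 0.274, 1.38 ± 0.343 and 1.09 ± 0.344, with limma's adjusted p = 0.0749, 0.0664 and 0.106. Ttk, the kinase Mps1, read 8.35, 7.74 and 7.46 in bitransgenic and 7.89, 8.35 and 7.7 in wild-type basal arrays, against 7.78, 7.03 and 6.24 in bitransgenic and 6.79, 6.82 and 5.95 in wild-type suprabasal arrays. Kntc1, a part of the complex that brings Mad2 and dynein to kinetochores, read 7.57, 7.44 and 7.38 in bitransgenic and 7.34, 7.59 and 7.75 in wild-type basal arrays, against 7.2, 6.75 and 6.36 in bitransgenic and 6.79, 6.42 and 5.86 in wild-type suprabasal arrays. Bitransgenic basal and suprabasal arrays overlapped for Ttk and not for Kntc1, which was above background in no group. Ttk had 1.46 ± 0.384 (adjusted p = 0.0741). Kntc1 was the 1 of 5 that rose, by 1.20 ± 0.241 (limma's adjusted p = 0.0463). With the code block, Mad2l1 and Kif23 were the 2 genes of the 48 that did not pass in wild-type cells (limma's adjusted p = 0.0633 and 0.055).

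Kinetochores couple chromosomes to microtubules through the Ndc80 complex, of which Ndc80, Nuf2 and Spc25 are subunits, and through the motor Cenpe. Ndc80 read 8.26, 8.0 and 8.1 in bitransgenic and 8.1, 8.61 and 7.87 in wild-type basal arrays, against 7.98, 7.58 and 7.19 in bitransgenic and 7.48, 7.35 and 6.39 in wild-type suprabasal arrays. Nsl1, a subunit of the Mis12 complex that anchors Ndc80, read 7.86, 7.6 and 7.44 in bitransgenic and 7.58, 7.75 and 7.81 in wild-type basal arrays, against 7.36, 7.16 and 7.05 in bitransgenic and 7.04, 6.86 and 6.61 in wild-type suprabasal arrays. Nsl1 was above the background mark in no group, its replicates were close, and it rose by 0.88 ± 0.135 in wild-type basal cells (limma's adjusted p = 0.036). Cenpe read 7.96, 7.57 and 7.26 in bitransgenic and 7.48, 8.08 and 7.58 in wild-type basal arrays, against 7.27, 6.7 and 6.62 in bitransgenic and 6.81, 6.34 and 5.78 in wild-type suprabasal arrays. Cenpf, a large protein of the outer kinetochore, read 8.19, 7.86 and 7.68 in bitransgenic and 8.15, 8.38 and 8.11 in wild-type basal arrays, against 7.68, 7.21 and 7.06 in bitransgenic and 7.44, 7.04 and 6.79 in wild-type suprabasal arrays. Cenpe and Cenpf rose by 1.40 ± 0.282 and 1.12 ± 0.199 in wild-type basal cells, beside 0.73 and 0.59 in bitransgenic cells. Cenpe was above background in no group and Cenpf in no suprabasal group. Of the 8 kinetochore genes 7 rose in wild-type cells, the exception being Ndc80 with 1.12 ± 0.294 (limma's adjusted p = 0.0738). Nuf2 read 7.48, 7.05 and 7.02 in bitransgenic and 7.12, 7.32 and 6.95 in wild-type basal arrays, against 6.88, 6.57 and 6.0 in bitransgenic and 6.25, 5.91 and 5.51 in wild-type suprabasal arrays. Spc25 read 7.33, 7.11 and 7.02 in bitransgenic and 7.28, 7.2 and 7.08 in wild-type basal arrays, against 6.82, 6.44 and 6.3 in bitransgenic and 6.61, 6.41 and 5.93 in wild-type suprabasal arrays. Both were above background in no group, and their layers did not overlap in either genotype. Knstrn, a kinetochore and spindle protein also called small kinetochore-associated protein, read 8.85, 8.71 and 8.58 in bitransgenic and 8.87, 8.88 and 8.86 in wild-type basal arrays, against 8.45, 8.03 and 8.14 in bitransgenic and 8.35, 8.14 and 7.75 in wild-type suprabasal arrays. It rose by at least 1.32-fold. Ska2, a subunit of the SKA complex that holds kinetochores on microtubules, read 7.56, 7.4 and 7.09 in bitransgenic and 7.78, 7.71 and 7.84 in wild-type basal arrays, against 7.15, 6.99 and 7.01 in bitransgenic and 7.21, 6.9 and 6.39 in wild-type suprabasal arrays. It was above background in no group, and its measured difference was 0.30 in bitransgenic cells, where the layers overlapped, and 0.94 in wild-type cells.

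Of the 8 spindle genes 6 rose in wild-type basal cells. Kif11, the motor Eg5 that pushes spindle poles apart, read 9.17, 8.71 and 8.49 in bitransgenic and 8.8, 9.29 and 8.7 in wild-type basal arrays, against 8.6, 7.92 and 7.17 in bitransgenic and 7.66, 7.29 and 6.2 in wild-type suprabasal arrays (chromosome 19, 37376403 to 37421859, plus strand). Kif11 was not above background in wild-type suprabasal cells. The 3 wild-type suprabasal arrays spanned 1.46 units, and the difference of 1.88 ± 0.408 did not pass (limma's adjusted p = 0.052), beside 0.89 ± 0.408 in bitransgenic cells. Hmmr, a microtubule-binding protein of the spindle, read 8.37, 8.06 and 7.81 in bitransgenic and 8.14, 8.51 and 8.29 in wild-type basal arrays, against 7.85, 6.98 and 6.63 in bitransgenic and 7.0, 6.58 and 5.96 in wild-type suprabasal arrays. It rose by 1.80 ± 0.317 in wild-type cells (limma's adjusted p = 0.0395), and was not above background in wild-type suprabasal cells. Aspm, which gathers microtubule minus ends at the poles, and Nusap1, which bundles microtubules near chromosomes, rose by 1.54 ± 0.21 and 1.64 ± 0.287 (limma's adjusted p = 0.0338 and 0.0391). Aspm read 7.92, 7.39 and 7.38 in bitransgenic and 8.09, 8.06 and 8.18 in wild-type basal arrays, against 7.22, 6.66 and 6.72 in bitransgenic and 6.94, 6.58 and 6.19 in wild-type suprabasal arrays. Nusap1 read 8.32, 7.98 and 7.73 in bitransgenic and 8.74, 8.34 and 8.59 in wild-type basal arrays, against 7.65, 7.12 and 7.0 in bitransgenic and 7.49, 7.0 and 6.25 in wild-type suprabasal arrays. Aspm was above background in no group and Nusap1 in no suprabasal group. Tpx2, the activator of Aurora A on the spindle, read 9.21, 8.81 and 8.67 in bitransgenic and 9.12, 9.28 and 8.97 in wild-type basal arrays, against 8.74, 8.19 and 7.64 in bitransgenic and 8.29, 8.09 and 6.92 in wild-type suprabasal arrays. It had 1.36 ± 0.349 (adjusted p = 0.0714). Kif18a, a motor that limits the length of kinetochore microtubules, read 7.18, 7.01 and 6.69 in bitransgenic and 7.14, 7.53 and 7.13 in wild-type basal arrays, against 6.68, 6.36 and 5.86 in bitransgenic and 6.43, 6.04 and 5.57 in wild-type suprabasal arrays. It rose by 1.25 and was above background in no group, and its promoter, shown above, holds neither core. Spag5, which encodes astrin, read 7.59, 7.6 and 7.51 in bitransgenic and 7.34, 7.58 and 7.48 in wild-type basal arrays, against 7.28, 6.92 and 6.98 in bitransgenic and 7.08, 6.92 and 6.71 in wild-type suprabasal arrays. Troap, which encodes tastin, read 7.59, 7.5 and 7.49 in bitransgenic and 7.59, 7.55 and 7.65 in wild-type basal arrays, against 7.24, 7.08 and 6.97 in bitransgenic and 7.15, 7.13 and 6.85 in wild-type suprabasal arrays. Both were above background in no group, so the size of their change cannot be read, but the replicates of each lay close together. The measured wild-type differences were 0.56 ± 0.114 and 0.55 ± 0.0918, and both passed (limma's adjusted p = 0.0464 and 0.0371).

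Cytokinesis uses Prc1 to bundle the central spindle, the centralspindlin pair Kif23 and Racgap1 to recruit the exchange factor Ect2, and anillin (Anln) to hold the contractile ring. Prc1 read 8.99, 8.84 and 8.52 in bitransgenic and 8.86, 9.0 and 8.84 in wild-type basal arrays, against 8.44, 7.77 and 7.44 in bitransgenic and 7.85, 7.32 and 6.97 in wild-type suprabasal arrays. Anln read 9.46, 9.18 and 8.93 in bitransgenic and 9.35, 9.74 and 9.37 in wild-type basal arrays, against 8.96, 8.46 and 7.7 in bitransgenic and 8.26, 8.07 and 7.1 in wild-type suprabasal arrays. Both rose in wild-type basal cells, Prc1 by 1.52 ± 0.26 (limma's adjusted p = 0.0381, at least 1.35-fold) and Anln by 1.68 ± 0.341 (limma's adjusted p = 0.0466, at least 2.03-fold). Racgap1, Cit and Shcbp1 rose as well, by 0.93, 0.64 and 1.75; Cit encodes citron kinase of the midbody, and Shcbp1 is a partner of the adaptor Shc. Racgap1 read 8.47, 8.46 and 8.22 in bitransgenic and 8.43, 8.57 and 8.52 in wild-type basal arrays, against 8.0, 7.67 and 7.66 in bitransgenic and 7.82, 7.62 and 7.29 in wild-type suprabasal arrays. Cit read 7.88, 7.88 and 7.55 in bitransgenic and 7.75, 7.94 and 7.76 in wild-type basal arrays, against 7.49, 7.14 and 7.15 in bitransgenic and 7.37, 7.18 and 6.97 in wild-type suprabasal arrays. Shcbp1 read 8.0, 7.56 and 7.41 in bitransgenic and 7.83, 8.01 and 7.61 in wild-type basal arrays, against 7.2, 6.75 and 6.2 in bitransgenic and 6.6, 6.24 and 5.37 in wild-type suprabasal arrays. Cit and Shcbp1 were above background in no group, and the layers of these 3 did not overlap in either genotype. Kif23 read 10.25, 9.9 and 9.93 in bitransgenic and 9.78, 10.35 and 9.61 in wild-type basal arrays, against 9.75, 8.97 and 8.06 in bitransgenic and 8.92, 8.89 and 7.63 in wild-type suprabasal arrays. Its difference was 1.10 ± 0.429 in bitransgenic cells (limma's adjusted p = 0.62), and 1.43 ± 0.429 in wild type (adjusted p = 0.0953). Kif20a, a motor that carries the passenger complex to the midzone, read 8.98, 8.76 and 8.35 in bitransgenic and 8.79, 9.12 and 8.71 in wild-type basal arrays, against 8.36, 8.02 and 7.31 in bitransgenic and 8.11, 7.91 and 7.15 in wild-type suprabasal arrays. In wild-type cells it had 1.15 ± 0.298 (adjusted p = 0.0725). Ect2 read 8.07, 8.21 and 7.54 in bitransgenic and 8.91, 8.27 and 9.04 in wild-type basal arrays, against 7.66, 6.85 and 6.41 in bitransgenic and 7.79, 6.6 and 6.91 in wild-type suprabasal arrays. Wild-type X667_06 and X721_08 stood above X682_11 in its basal group, as they did for Nusap1. Its layers did not overlap in wild-type cells, and the difference was 0.97 ± 0.371 in bitransgenic and 1.64 ± 0.371 in wild-type cells (limma's adjusted p = 0.0571 in wild type).

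Mki67, the antigen Ki-67 that coats mitotic chromosomes, lies on chromosome 7, 135689788 to 135716379, minus strand. It read 11.08, 11 and 10.84 in bitransgenic and 11.33, 11.48 and 11.24 in wild-type basal arrays, against 10.72, 10.32 and 10.15 in bitransgenic and 10.5, 10.28 and 9.7 in wild-type suprabasal arrays. Basal and suprabasal arrays did not overlap, and the difference was 0.58 ± 0.195 in bitransgenic cells (limma's adjusted p = 0.605) and 1.19 ± 0.195 in wild-type cells (adjusted p = 0.0362). Top2a, the topoisomerase that untangles sister chromatids, read 9.85, 9.42 and 9.34 in bitransgenic and 9.45, 9.98 and 9.44 in wild-type basal arrays, against 9.32, 8.72 and 7.91 in bitransgenic and 8.52, 8.31 and 6.91 in wild-type suprabasal arrays. Its wild-type suprabasal arrays spanned 1.61 units and it did not pass (1.71 ± 0.428, limma's adjusted p = 0.0669). Prr11, a proline-rich protein of late cell cycle, read 8.38, 7.87 and 7.74 in bitransgenic and 8.34, 8.46 and 8.26 in wild-type basal arrays, against 7.56, 7.0 and 6.8 in bitransgenic and 7.28, 6.91 and 6.37 in wild-type suprabasal arrays. It rose by 1.5 ± 0.252 (limma's adjusted p = 0.0372).

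The genes moved together from array to array. Within groups, the deviations of any 2 of the 48 from their group means correlated with a median r of 0.873 over 12 arrays, a description in which all pairs share the same arrays. The bitransgenic and wild-type layer differences, which come from different arrays, correlated at r = 0.82 (Spearman 0.84) over the 48 genes, which are not independent. All 48 measured differences were smaller in bitransgenic than in wild-type cells. Only 9 of the 48 genes were above background in wild-type suprabasal cells, and 16 were above it in no group, so the sizes compared rest in large part on signals under the mark.

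**Figure D4:**
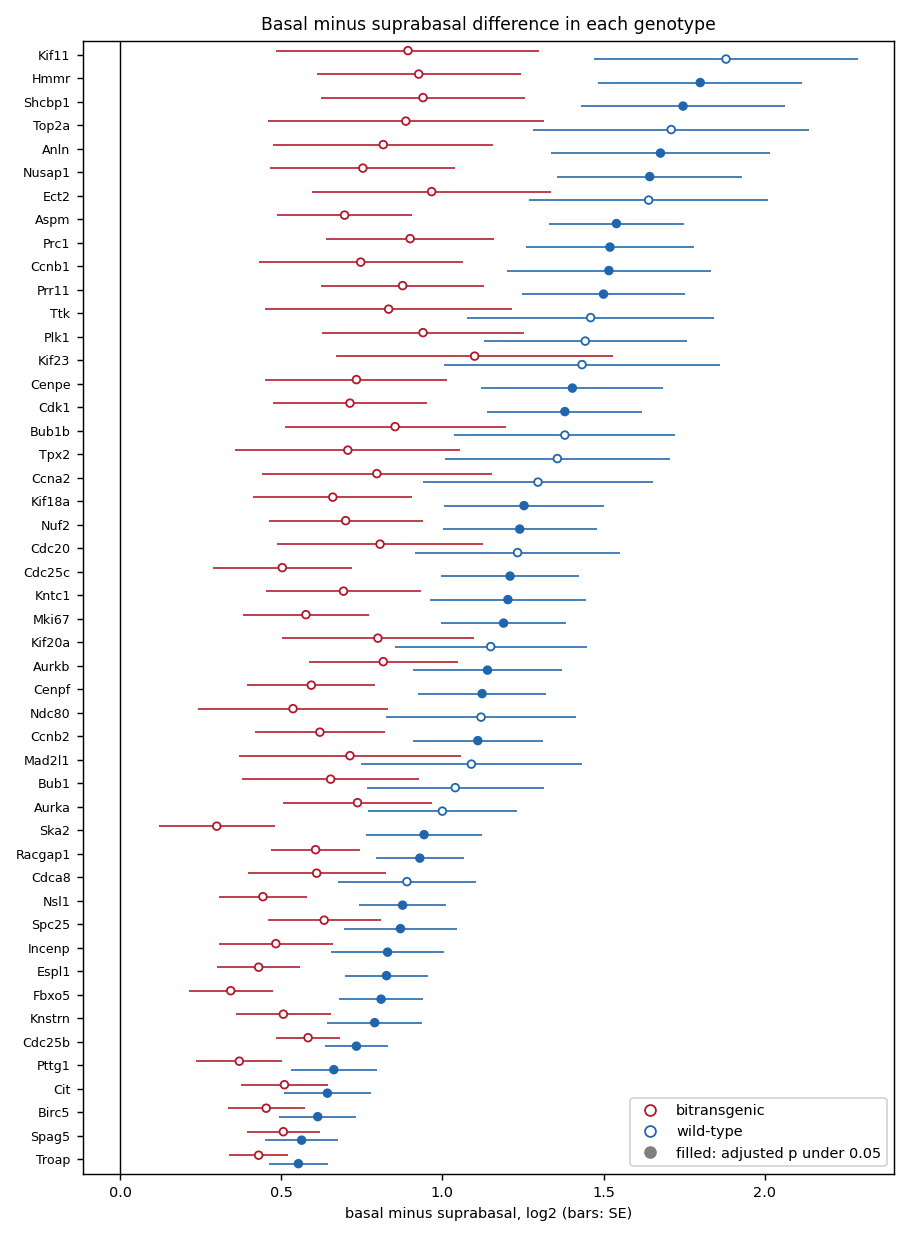
Basal minus suprabasal difference of each of the 48 genes (x axis, log2 units; bars are SE from limma) in bitransgenic (red) and wild-type (blue) cells, ordered by the wild-type value; filled points have adjusted p under 0.05. Wild-type points lie right of the bitransgenic ones for all genes, and 32 of them are filled, against 0 in bitransgenic cells.

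Whether the layers differ by another amount in bitransgenic cells is the interaction, bitransgenic minus wild-type difference of the layer differences. It was negative for all 48 genes, with a median of -0.51 and a range from -0.99 for Kif11 to -0.06 for Spag5, against a median of 0.06 over all clusters, of which 63.0% were positive. No gene passed (lowest limma adjusted p = 0.423, 0% of clusters called), and 6 had an unadjusted limma p under 0.05, against 1.27% of all clusters lower at that p. Those were Aspm (-0.84 ± 0.297), Fbxo5, Ska2, Cdc25c, Nsl1 and Mki67 (-0.61 ± 0.275). The size of the layer difference is therefore not shown to differ between the genotypes. Leaving out single arrays moved the median interaction from -0.75, without bitransgenic suprabasal X721_05, to -0.26, without wild-type suprabasal X721_08.

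In basal cells the bitransgenic minus wild-type differences had a median of -0.13, from -0.80 for Ect2 to 0.11 for Kif23, with 4 positive, against a median of 0.04 over all clusters. No gene passed (lowest limma adjusted p = 0.327, 0% of clusters called). Arrays did not overlap for 7 genes, all lower in bitransgenic cells, against 5.01% of all clusters: Aspm, Ska2, Ect2, Espl1, Mki67, Nusap1 and Knstrn. Of these, Aspm, Ska2 and Espl1 were above background in no group, and Ect2 was not above it in bitransgenic basal cells. Aspm, Nusap1 and Ska2, whose values stand above, had differences of -0.55 ± 0.21, -0.55 ± 0.287 and -0.43 ± 0.179 (limma's adjusted p = 0.327, 0.44 and 0.358). The highest bitransgenic value lay 0.14, 0.02 and 0.15 units under the lowest wild-type value in these 3. At an unadjusted limma p under 0.05 there were 2 genes, Aspm and Ska2, against 3.73% of all clusters lower at that p, a share near that of the members. The median was -0.27 without bitransgenic basal X667_05, -0.04 without X722_07 of the same group, and -0.065 and -0.21 without wild-type basal X682_11 and X721_08. Ect2 and Mki67 had -0.80 ± 0.371 and -0.38 ± 0.195 (limma's adjusted p = 0.391 and 0.434). The remaining genes lay closer to 0, and those of the chromosomal passenger complex ran from -0.12 to -0.017.

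In suprabasal cells the bitransgenic minus wild-type differences had a median of 0.29, from -0.13 for Ect2 to 0.85 for Kif11, and 47 of 48 were positive, against a median of -0.03 and 37.7% positive over all clusters. Only 21 of the 48 genes were above the mark in bitransgenic and 9 in wild-type suprabasal cells. These sizes and signs therefore rest in large part on signals under it, including those of Ect2 in both groups and Kif11 in wild-type cells. No gene passed (lowest limma adjusted p = 0.866, 0% of clusters called). The arrays of Nsl1 alone did not overlap, against 2.52% of all clusters. Nsl1 had 0.35 ± 0.135 (unadjusted p = 0.0248, limma), Nuf2 0.59 ± 0.238 and Cdk1 0.58 ± 0.24, and these 3 had an unadjusted limma p under 0.05, against 1.64% of all clusters higher at that p. Nsl1 and Nuf2 were above background in no group, and Cdk1 was not above it in wild-type suprabasal cells. The median was 0.10 without bitransgenic suprabasal X667_05, 0.47 without X721_05 of the same group, and 0.48 and 0.06 without wild-type suprabasal X667_06 and X721_08. Arrays of the 2 genotypes whose codes share a first number were also set side by side, though the labels do not say what it marks. The median suprabasal difference was 0.37 for X667, with 46 of 48 genes higher in bitransgenic cells, 0.15 for X682 with 40, and 0.41 for X721 with 45. In basal arrays it was 0.15 for X667, with 36 higher, and -0.09 for X721, with 17 higher. With the first number as a block in the suprabasal arrays, a setting added after seeing the data, 31 genes, all higher in bitransgenic cells, had an unadjusted limma p under 0.05, against 3.47% of all clusters higher at that p, and 0 passed (lowest adjusted p = 0.598).

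Both genotype comparisons mix sex patterns. Bitransgenic X667_05, X722_07 and X682_05 read 10.69 to 11.08 for Xist, the RNA of the inactive X, and 4.56 to 5.04 for the Y-linked Ddx3y. Bitransgenic X721_05 and all wild-type arrays read 4.09 to 4.28 for Xist and 8.0 to 8.6 for Ddx3y. With a term for that pattern, which leaves X721_05 to carry the genotype within 1 pattern, the medians of the 48 genes were -0.36 in basal and 0.11 in suprabasal cells, and no gene passed. Genotype and sex pattern can be told apart here only through X721_05.

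**Figure D5:**
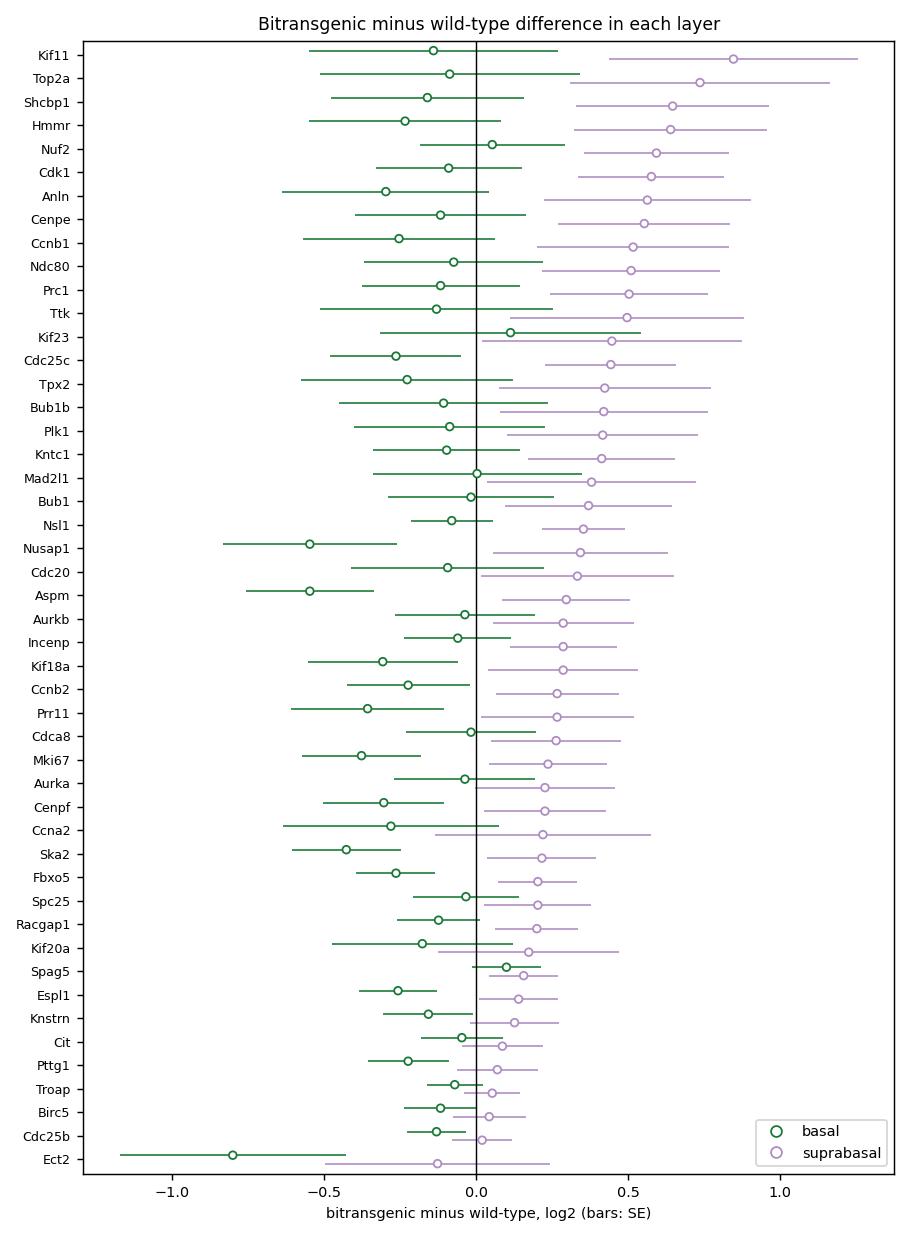
Bitransgenic minus wild-type difference of each of the 48 genes (x axis, log2 units; bars are SE from limma) in basal (green) and suprabasal (purple) cells, ordered by the suprabasal value. The suprabasal points lie right of 0 for 47 genes and the basal points left of 0 for most, and no point has adjusted p under 0.05.

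Other genes of the cell cycle, taken from lists chosen with earlier results of these data known, were set beside the 48. Of 80 other mitosis genes 76 were measured, and all 76 were higher in basal cells by group mean, with medians of 0.49 in bitransgenic and 0.85 in wild-type cells. In wild-type cells 19 rose and 0 fell (limma's adjusted p under 0.05), against 0.406% of all clusters called higher. In bitransgenic cells 0 passed, and no cluster of the array did. With the code block 56 of 76 rose in wild-type cells, against 1.34% of all clusters. Those that rose in the plain fit include Ube2s, a ubiquitin-conjugating enzyme of the anaphase-promoting complex (0.79, limma's adjusted p = 0.0193), Wee1, the kinase that restrains Cdk1 (1.0, adjusted p = 0.0476), and Sgo2a, a protector of cohesion at centromeres (1.12, adjusted p = 0.0464). Their genotype medians were -0.13 in basal and 0.25 in suprabasal cells, beside -0.13 and 0.29 for the 48. Of 30 genes of S phase 29 were measured, and all 29 were higher in basal cells by group mean, with medians of 0.42 in bitransgenic and 0.79 in wild-type cells. Of these, 0 passed in either genotype, where 0% and 0.406% of all clusters were called higher. Of 22 measured regulators of mitotic transcription, 15 were higher in bitransgenic and 17 in wild-type basal cells, with medians of 0.14 and 0.31; E2f8, a repressor of the E2F family, rose by 0.95 and the chromatin subunit Rbbp4 by 0.43 in wild-type cells (limma's adjusted p = 0.0405 and 0.0381).

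The authors' deposited table gives signed folds of mean signals for the same comparisons. For the 48 genes it listed basal over suprabasal folds of 1.24 to 1.93 in bitransgenic cells (median 1.58, p under 0.05 for 14 genes, against 5.91% of all clusters) and 1.46 to 3.44 in wild-type cells (median 2.23, p under 0.05 for 48, against 18% of all clusters). The lowest q of the authors' deposited table among them was 0.686 in bitransgenic and 0.105 in wild-type cells. Between genotypes the authors' deposited table listed folds of -1.75 to 1.07 in basal cells and -1.09 to 1.79 in suprabasal cells. All these folds are ratios of measured signals and give no exact size under the background mark. Ska2 (1.24) and Troap (1.46) lay under it in all groups. Kif11 (3.44 and 1.79) did so in wild-type suprabasal cells, and Ect2 (-1.75 and -1.09) in bitransgenic basal and both suprabasal groups. In basal cells 3 genes, all lower, had the authors' p under 0.05, against 2.67% of all clusters lower at that p. In suprabasal cells 0 genes had, against 6.82% of all clusters in either direction.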

How the data were processed

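Affymetrix MTA-1_0 arrays of 12 samples were analysed. Per the submitters' processing notes, RMA in Expression Console made the log2 signals that the authors deposited for each transcript cluster, and the file headers name mm10. RMA corrects background, makes the distributions of arrays alike and summarizes probes, so a shift shared by most genes would not be seen. The authors' deposited table also holds, per the file headers, a signed fold change of mean unlogged signals (a score that is negative where the first group is lower), a p-value and a q-value per comparison, the making of the q-values being unstated.

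Of 72688 probe sets, 6732 controls were left out. One limma fit of 4 group means to 65956 clusters, with no filter, gave all 6 comparisons, with Benjamini-Hochberg adjustment over all clusters and calls at 0.05. The design's unpaired Student test was an alternative, since 3 arrays a group give a poor spread per gene; others were scaling, filter, moderation, weights, code blocks, an Xist term and arrays left out. Settings chosen after seeing the data are named where used. On simulated data with 65956 clusters, the wild-type layer comparison recovered 50% of 50 changes of 0.5 and 84% of 50 changes of 1 (log2), with 9 false calls. The simulated noise was drawn separately for each cluster, whereas the 48 genes moved together from array to array. These figures check the fit and do not give the recovery or false calls of the real data. The genes, lists and tests were chosen with earlier results of these data known. Values on every array are given for all 48 genes.

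The codes pair the samples, as seen in the data and not in the labels: same-code arrays correlated at 0.136 to 0.533 in their deviations, different codes at a median of -0.124. Deviations from a group mean cancel within each group, so positive values for the same code push those for different codes down. That value is therefore no separate sign of pairing. R 4.3.3, limma 3.58.1 and Python 3.11.15 were used, with data.table and with matplotlib 3.10.9 for the figures.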

Additional observations from a re-analysis of the deposited data

How the results depend on the processing

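The median differences kept their sign under all alternatives run, and the counts of genes called stayed at 0 in both genotype comparisons and the interaction. The wild-type layer count of 32 was 19 with each array centred on its median, 15 with cyclic loess, 20 with trend and robust moderation, 37 with a filter on dim clusters, 36 with array weights and 28 with an Xist term. It was 0 with only the groups compared, 0 with the design's test (46 genes had unadjusted p under 0.05, against 18.1% of all clusters in either direction) and 0 without the suprabasal arrays X721_05 and X721_08, where the median was 0.93. The mean-layer count of 36 was 1 without those arrays. Of all clusters, 0.406% were called higher in wild-type layers in the main fit and 0.197% with cyclic loess. For most other settings that share is not given, so their counts do not show whether these genes or the whole array changed. As a replicate block, the code gave 46 of 48 when random and 41 when fixed over wild-type arrays, and 47 in the mean of both genotypes; it changed no call in the other comparisons.

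With single arrays left out, the called counts ran from 0 to 45 in wild-type layers, 0 to 1 in bitransgenic layers, and 0 to 48 in the mean of both. The medians ran from 0.93 to 1.36, 0.48 to 0.90 and 0.82 to 1.05 in those comparisons, from -0.27 to -0.04 in basal and 0.06 to 0.48 in suprabasal genotype comparisons, and from -0.75 to -0.26 in the interaction. The counts both fell and rose when an array was left out. Without a bitransgenic array the wild-type median stayed at 1.20, and the wild-type count moved only through the shared spread and the adjustment. For the other counts the cause was not tested. The shares of all clusters called are not given for these fits. Single called genes kept their call in 8 to 16 of 25 settings in wild-type layers and 7 to 20 of 22 in the mean of both. Signals under the intronic mark, as for 16 genes in all groups, limit what can be read of size.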
